A study of Mus musculus with 2 samples.

Results

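The epidermal differentiation complex (EDC) is a cluster of genes on mouse Chr 3 that encode building blocks of the outermost skin. Its members were chosen by name, as probe sets with a single gene symbol that starts with Lce, Sprr or S100a and a digit, or that is Flg, Flg2, Lor, Ivl, Rptn, Crnn, Hrnr, Tchh or Tchhl1. This gave 54 of the 45101 probe sets, which stand for 43 of the 18193 genes. In the RefSeq gene table all 43 lie on Chr 3, a chromosome that the labels do not name as duplicated. They are 15 late cornified envelope genes (Lce), 9 small proline-rich genes (Sprr), 12 S100a genes, 5 fused-type S100 genes (Flg, Hrnr, Rptn, Tchh and Tchhl1), and loricrin (Lor) with involucrin (Ivl). RefSeq lists 62 genes that fit the names, and the other 19, Flg2 and Crnn among them, were not analysed here.

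The samples were whole heads of newborn mice, all offspring of carriers of the reciprocal translocation T(2:9)11H. The MatDp(dist2) head carried a maternal duplication of Chr 2 distal of the breakpoint and a paternal duplication of distal Chr 9. The PatDp(dist2) head carried the reverse, a paternal duplication of distal Chr 2 and a maternal duplication of distal Chr 9. Values "with MatDp(dist2)" or "with PatDp(dist2)" are those of the head of that genotype. Each genotype was measured on 1 Affymetrix array, so there is no spread between animals, no test and no p-value. The number of animals behind each sample is not given in the sources used here.

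In the epidermis, keratinocytes leave the basal layer, move outward, and end as dead, flattened cells of the cornified layer. On the way they build a cornified envelope under the cell membrane, in which transglutaminases link loricrin, involucrin, Sprr and Lce proteins to each other. Filaggrin and the other fused-type S100 proteins, long repeat proteins with a calcium-binding start, bundle keratin filaments or join the envelope. The small S100a proteins are calcium-binding signalling proteins, and many of them are made in cells other than keratinocytes.

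The start regions of the genes are given first, since they show which stretches the Lce genes share within their Lce1 and Lce3 groups. Each stretch covers the 130 bases just before the annotated start of the gene, read 5′ to 3′ in the direction of transcription, from the RefSeq promoter table of build GRCm38.p6. Capitals mark matches to 4 motifs that were searched on both strands. The first is the TATA box in the form TATAAA. The second is its relative ATAAAA, which overlaps the first by 5 letters wherever another A follows it. The third is TGANTCA, where N is any base, which reads the same on both strands. It is wider than the AP-1 site, which has C or G in the middle. A match is therefore not always an AP-1 site, and those marked in Flg and Sprr1b read TGAATCA. The fourth, ACTGTCTCAC, is shared by 9 of 13 Lce1 start regions. No run of 10 letters was shared by more of them, and one other was shared by as many, which ends in ATAAAA. The motifs were chosen after the sequences were seen. Lce1b and Lce1h stand for the Lce1 group, and Lce3c and Lce3f for the Lce3 group:
Lce1b, chr3:92656927-92657056, minus strand: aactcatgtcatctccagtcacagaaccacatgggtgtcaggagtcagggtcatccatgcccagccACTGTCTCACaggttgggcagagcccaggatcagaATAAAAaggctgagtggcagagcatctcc
Lce1h, chr3:92765066-92765195, minus strand: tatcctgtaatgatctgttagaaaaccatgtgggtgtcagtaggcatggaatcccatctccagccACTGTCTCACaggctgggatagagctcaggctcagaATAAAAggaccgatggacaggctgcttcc
Lce3c, chr3:92944356-92944485, plus strand: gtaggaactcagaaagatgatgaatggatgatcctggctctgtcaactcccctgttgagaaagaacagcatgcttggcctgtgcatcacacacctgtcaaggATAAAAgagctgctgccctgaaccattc
Lce3f, chr3:92992087-92992216, plus strand: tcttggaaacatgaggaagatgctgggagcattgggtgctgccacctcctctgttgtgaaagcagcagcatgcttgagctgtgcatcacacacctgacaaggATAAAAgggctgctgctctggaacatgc

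The next 5 stretches come from the subfamilies to be set against the Lce genes, loricrin, involucrin, filaggrin, a small proline-rich gene and S100a8:
Lor, chr3:92083143-92083272, minus strand: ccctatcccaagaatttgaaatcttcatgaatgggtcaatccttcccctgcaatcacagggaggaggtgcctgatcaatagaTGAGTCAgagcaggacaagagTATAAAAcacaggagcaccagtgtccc
Ivl, chr3:92573736-92573865, minus strand: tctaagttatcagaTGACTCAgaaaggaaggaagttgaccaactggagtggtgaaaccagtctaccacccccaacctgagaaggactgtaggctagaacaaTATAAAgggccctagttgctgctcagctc
Flg, chr3:93273416-93273545, plus strand: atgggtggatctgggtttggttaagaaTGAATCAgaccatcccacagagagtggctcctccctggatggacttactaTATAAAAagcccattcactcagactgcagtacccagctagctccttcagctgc
Sprr1b, chr3:92438780-92438909, minus strand: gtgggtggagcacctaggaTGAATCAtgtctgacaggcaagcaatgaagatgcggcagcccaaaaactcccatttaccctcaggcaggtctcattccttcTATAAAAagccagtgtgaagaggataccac
S100a8, chr3:90668941-90669070, plus strand: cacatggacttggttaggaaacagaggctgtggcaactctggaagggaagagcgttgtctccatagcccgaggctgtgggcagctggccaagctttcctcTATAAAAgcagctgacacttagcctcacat

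The promoter table held 59 start regions of 55 of the named genes, and the motifs were counted in the 250 bases before each start. ATAAAA was found in 19 of 20 Lce start regions, against 17.0% of all 32851 start regions in the table. ACTGTCTCAC was found in 0 of 6 Lce3 start regions and 0 of the start regions of the other subfamilies, and in 43 start regions (0.131%) of the whole table. TATAAA was found in 10 of 14 Sprr, 4 of 7 fused-type, 4 of 20 Lce and 4 of 16 S100a start regions, in both of loricrin and involucrin, and in 12.4% of all. Of the Lce matches, those of Lce1d and Lce1m began at -30 and -29 from the start. Those of Lce3e and Lce6a lay on the opposite strand at -243 and -218, as did the counted ATAAAA of Lce6a at -219. The counts set no limit on position or strand. TGANTCA was found in 0 of 20 Lce start regions. It was found in 9 of 14 Sprr, 5 of 7 fused-type and both of the loricrin and involucrin start regions, in 3 of 16 S100a start regions, and in 6.75% of all. Compared letter by letter over 100 bases near the start, at the best of shifts of up to 10 bases, pairs of Lce1 start regions were 45.5% identical in the median and pairs of Lce3 start regions 49%. An Lce1 with an Lce3 region had 35%, as had an Lce1 with an Sprr region, and an Lce1 with an S100a region had 34%. A match is a run of letters, and binding of any factor was not measured.

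The values are the deposited MAS5 signals, linear intensities that the authors had scaled per array. Signals of different probe sets are not compared with each other, only the same probe set between the heads. A floor of 187, the median of the arrays' medians, stands in for background. A gene was taken as measured where at least 1 head was at or above it. For a gene below the floor in 1 head, the fold is the brighter signal divided by that floor, a lower bound written as "at least". Such a bound grows with the brighter signal. Of all probe sets, 51.6% with MatDp(dist2) and 48.3% with PatDp(dist2) were at or above the floor. Genes with several probe sets are counted by their brightest one.

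Most of the structural genes of the cornified layer were higher with MatDp(dist2), while most S100a genes were higher with PatDp(dist2). Of the 43 genes 33 were measured, and 22 of these were at least 2-fold higher with MatDp(dist2). Among all 12481 measured genes 4.43% were that far higher with MatDp(dist2). Another 5, all S100a genes, were at least 2-fold higher with PatDp(dist2), against 3.47% of all measured genes. The median log2 ratio of MatDp(dist2) over PatDp(dist2) was 1.89 over the EDC genes and 0.02 over all measured genes. Outside the S100a genes 24 members were measured, and 16 of them were above the floor only with MatDp(dist2), which fixes their direction. The other 8 were above it in both heads, and all 8 had the higher signal with MatDp(dist2), a direction found in 50.1% of all genes above the floor in both. Of the 22 higher genes 14 rest on a bound, and with both heads required at or above the floor 8 were left, against 3.73% of all genes by that rule. The 5 S100a genes all met it, against 3.52% of all genes. At a 3-fold threshold 19 EDC genes were higher with MatDp(dist2), against 1.17% of all genes, and 0 with PatDp(dist2), against 0.801%.

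**Figure D1:**
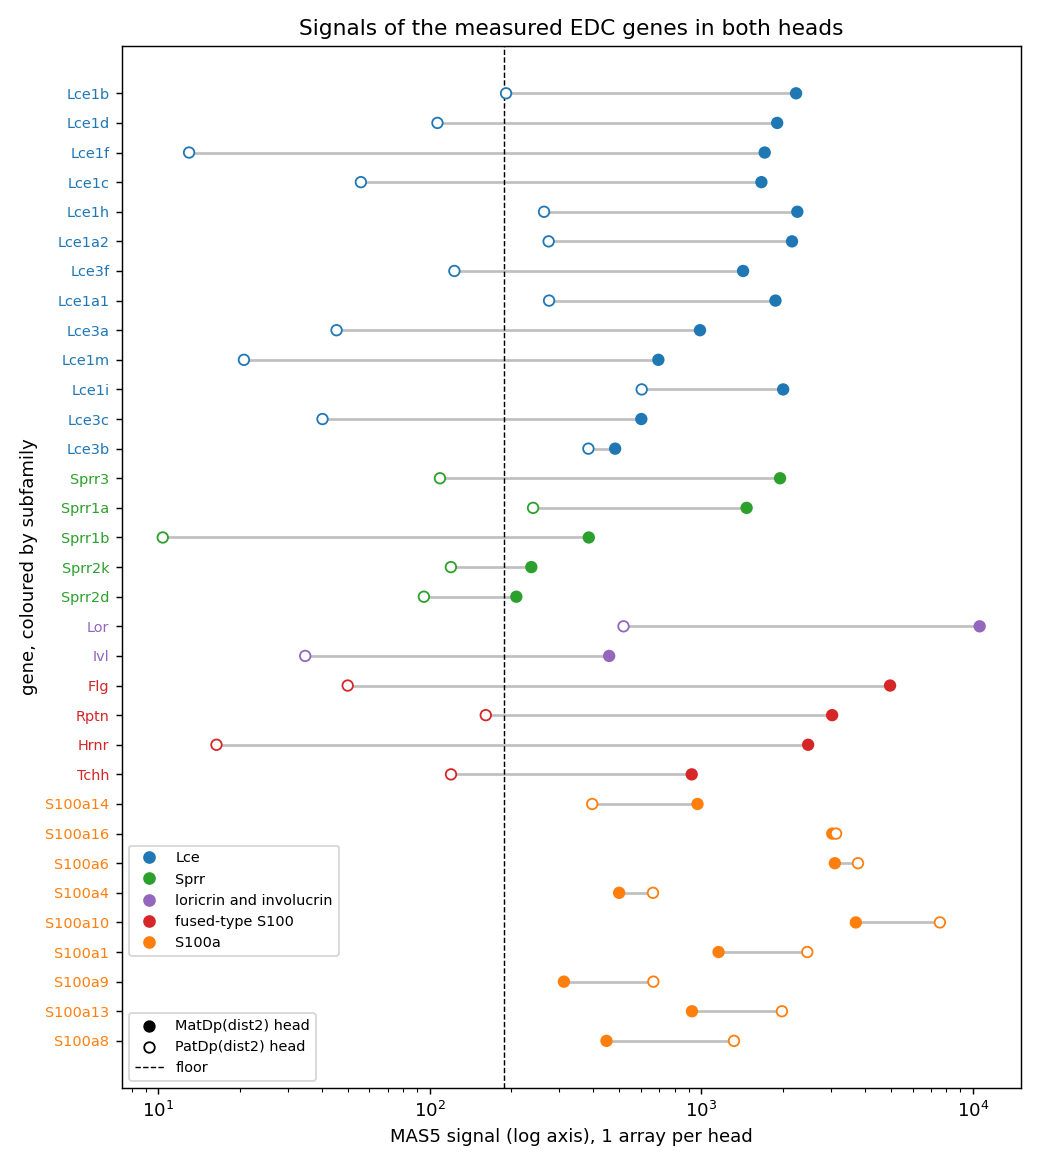
MAS5 signals (log axis) of the 33 measured EDC genes, with filled points for the MatDp(dist2) head, open points for the PatDp(dist2) head, colours for subfamilies and a dashed line at the floor of 187. Of the 24 genes other than S100a, which have their filled point to the right, 16 pass the floor only by that point, and 8 of 9 S100a genes have their open point to the right.

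The EDC genes also stood among the largest differences of the whole comparison. By ratio or bound, they made up 15 of the 50 highest measured genes, and 33 of all 12481 measured genes. Of these 15, 9 were Lce genes. Flg, Rptn, Hrnr, Sprr3, Lce1c, Lce1d, Lce1f, Lce3a and Lce3f are among the 15 by a bound, so the MatDp(dist2) signal alone set their rank. The share of genes past 2-fold depends on brightness, so the members are also given by the signal in the brighter head. At 2000 or more, 8 of 12 EDC genes and 4.15% of all genes were at least 2-fold higher with MatDp(dist2). Between 1000 and 2000 they were 7 of 9 EDC genes and 5.19% of all genes. Between 500 and 1000 they were 5 of 7 and 6.50%, and below 500 they were 2 of 5 and 2.20%. Of the 22 EDC genes in these counts 14 rest on a bound, and the percentages of all genes include bounds too. A gene at 500 or more with MatDp(dist2) and below the floor with PatDp(dist2) passes 2-fold by its bound alone. The split by brightness therefore does not remove the effect of the floor. In the other direction, the share of all genes at least 2-fold higher with PatDp(dist2) was 0.767% below 500 and 2.87% between 500 and 1000. It was 3.63% between 1000 and 2000 and 8.14% at 2000 or more. S100a1 and S100a10, which are among the S100a genes higher with PatDp(dist2), lie in this brightest group.

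**Figure D2:**
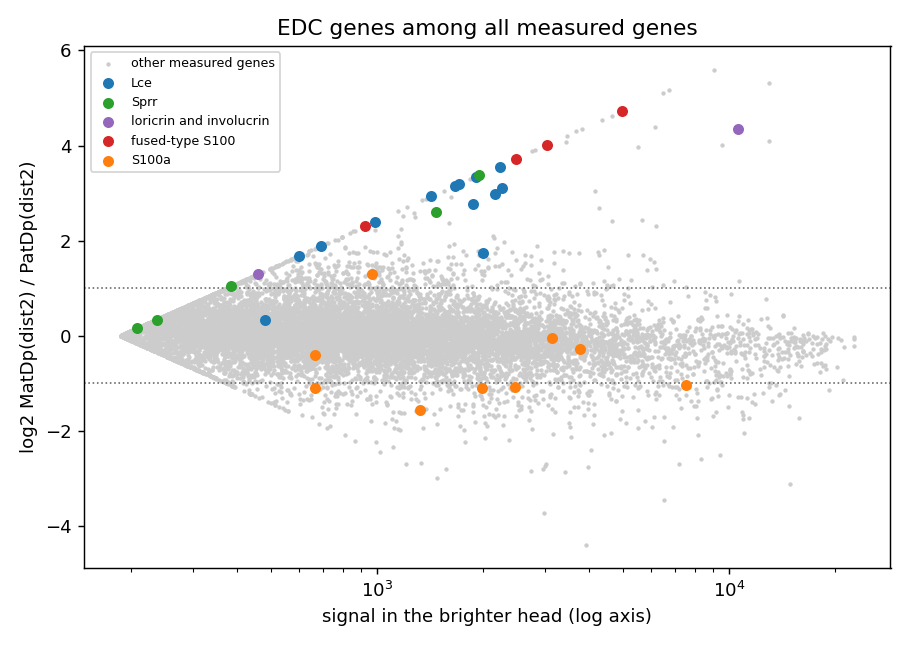
The log2 ratio of MatDp(dist2) over PatDp(dist2) against the signal in the brighter head (log axis), with grey points for all other measured genes and coloured points for the EDC genes. Points on the slanted edges are bounds, whose size is set by the brighter signal, and 22 EDC genes lie at or above the upper 2-fold line.

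The Lce genes encode small cysteine-rich proteins that are added late to the inner face of the envelope. Of 13 measured Lce genes 6 were above the floor in both heads, and 5 of these 6 were at least 2-fold higher with MatDp(dist2). The other 7 passed the floor only with MatDp(dist2), so their direction was fixed, and the median log2 ratio of 2.93 over the 13 includes their bounds. The 5 Lce1 genes above the floor in both heads lay between a 3.32-fold difference for Lce1i and an 11.7-fold difference for Lce1b. Lce1b, whose start region is printed above, had a signal of 2235 with MatDp(dist2) and 191 with PatDp(dist2), just above the floor.

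Lce1a2 had 2159 with MatDp(dist2) and 274 with PatDp(dist2), a 7.87-fold difference. Lce1h, whose start region is also printed, had 2259 with MatDp(dist2) and 264 with PatDp(dist2), 8.57-fold. Lce1i had 2003 with MatDp(dist2) and 604 with PatDp(dist2), 3.32-fold. On each of these 3 probe sets both heads lay above the floor.

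Lce1c, Lce1d and Lce1f were below the floor with PatDp(dist2). Lce1c had a signal of 1665.5 with MatDp(dist2) and 55.8 with PatDp(dist2), at least 8.90-fold. Lce1d had 1904 with MatDp(dist2) and 107 with PatDp(dist2), at least 10.2-fold. Lce1f had 1713 with MatDp(dist2) and 13.0 with PatDp(dist2), at least 9.15-fold, while its other probe set, 1449902_at, was below the floor in both, at 153 with MatDp(dist2) and 46.7 with PatDp(dist2). Lce1m, which lies apart from the other Lce1 genes beyond the Lce3 group, had 695 with MatDp(dist2) and 20.7 with PatDp(dist2), at least 3.71-fold.

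Lce1a1 was read by a pair of probe sets with different sizes of difference. Probe set 1420677_x_at had signals of 1877 with MatDp(dist2) and 275 with PatDp(dist2), 6.82-fold. Probe set 1420676_at had 1615 with MatDp(dist2) and 50.7 with PatDp(dist2), at least 8.63-fold. Affymetrix gives the endings _x_at and _s_at to probe sets that can also bind other transcripts, and 7 of the 17 Lce probe sets carry one. Among these are the probe sets on which Lce1a1, Lce1h and Lce1i were above the floor in both heads. On the Lce probe sets without such an ending 7 Lce genes were measured, and all 7 were at least 2-fold higher with MatDp(dist2). Only Lce1a2 and Lce1b of these were above the floor in both heads. The others are bounds that pass 2-fold by the MatDp(dist2) signal alone. Lce1g, with signals of 183 with MatDp(dist2) and 76.6 with PatDp(dist2), and Lce1l, with 93.0 with MatDp(dist2) and 13.4 with PatDp(dist2), lay below the floor in both heads.

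The 4 Lce3 genes, relatives known from humans to be induced in damaged skin, were less uniform. Lce3f had a signal of 1426 with MatDp(dist2) and 123 with PatDp(dist2), at least 7.62-fold. Lce3a had 989.5 with MatDp(dist2) and 45.4 with PatDp(dist2), at least 5.29-fold. Lce3c had 602 with MatDp(dist2) and 40.3 with PatDp(dist2), at least 3.22-fold. With the floor at the 70th percentile the bounds of Lce3c and Lce1m were under 2-fold, at log2 ratios of 0.37 and 0.58. Lce3b was the one measured Lce gene under 2-fold, with 482 with MatDp(dist2) and 384 with PatDp(dist2) on a probe set ending in _x_at. The median log2 ratio was 2.04 for the Lce3 genes and 3.10 for the Lce1 genes, and this difference was not tested. Bounds made up 3 of the 4 measured Lce3 genes and 4 of the 9 measured Lce1 genes. A bound grows with the brighter signal, so these medians do not show which group differed more.

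Loricrin, the main protein of the cornified envelope, had 3 probe sets, and all were higher with MatDp(dist2). Probe set 1420183_at had 10600 with MatDp(dist2) and 517 with PatDp(dist2), a 20.5-fold difference. Probe set 1448745_s_at had 8652 with MatDp(dist2) and 46.2 with PatDp(dist2), at least 46.2-fold. The dim probe set 1420184_at had 273 with MatDp(dist2) and 114 with PatDp(dist2), at least 1.46-fold.

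Involucrin, an early scaffold of the envelope, differed less far as a bound. Its probe set 1439878_at had 458 with MatDp(dist2) and 34.8 with PatDp(dist2), at least 2.45-fold. Its other probe set, 1422222_at, was below the floor in both heads, at 10.2 with MatDp(dist2) and 3.6 with PatDp(dist2).

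All 4 measured fused-type S100 genes passed the floor only with MatDp(dist2), which fixes their direction, and the median of their bounds was a log2 ratio of 3.87. Filaggrin (Flg), whose precursor fills the keratohyalin granules, had 4959 with MatDp(dist2) and 49.9 with PatDp(dist2), at least 26.5-fold. Hornerin (Hrnr), a relative of filaggrin, had 2475.5 with MatDp(dist2) and 16.4 with PatDp(dist2), at least 13.2-fold. Repetin (Rptn), an envelope precursor found in skin, tongue and forestomach of mice, had 3034 with MatDp(dist2) and 161 with PatDp(dist2), at least 16.2-fold.

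Trichohyalin (Tchh), which hardens the inner root sheath of the hair follicle, had 922.5 with MatDp(dist2) and 119.8 with PatDp(dist2), at least 4.93-fold. With the floor at the 70th percentile its bound was a log2 ratio of 0.99. Tchhl1, with 17.3 with MatDp(dist2) and 18.3 with PatDp(dist2), and 2 further probe sets of Rptn, with 106 to 116 with MatDp(dist2) and 86.2 to 117 with PatDp(dist2), were below the floor in both.

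The Sprr genes encode proline-rich bridges between envelope proteins, and 4 of the 5 measured ones rest on a bound. Sprr3, a gene of internal stratified epithelia such as that of the mouth, had 1951 with MatDp(dist2) and 109 with PatDp(dist2), at least 10.4-fold. Sprr1a had 1469 with MatDp(dist2) and 240.3 with PatDp(dist2), 6.11-fold with both above the floor. Sprr1b had 385 with MatDp(dist2) and 10.4 with PatDp(dist2), at least 2.06-fold. That bound fell under 2-fold with quantile normalization, at a log2 ratio of 0.97, and with the floor at the 70th percentile Sprr1b and Ivl were not measured.

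The Sprr2 genes with a probe set of their own were dim in both heads, while a probe set shared by Sprr2a1, Sprr2a2 and Sprr2a3, outside the naming rule, had 798.8 with MatDp(dist2) and 672.3 with PatDp(dist2). Sprr2d had 208.5 with MatDp(dist2) and 95.2 with PatDp(dist2), at least 1.11-fold, and with the floor at the 30th percentile its log2 ratio was 1.13. Sprr2k had 237 with MatDp(dist2) and 119.7 with PatDp(dist2), at least 1.27-fold, and with that lower floor its log2 ratio was 0.98. Both bounds are small because the MatDp(dist2) signal was close to the floor. Sprr2f, Sprr2h, Sprr2i and the pseudogene Sprr2j-ps were below the floor, with 12.6 to 148 with MatDp(dist2) and 3.6 to 19.6 with PatDp(dist2). The median log2 ratio of the 5 measured Sprr genes was 1.04. It depends on how dim values are treated and was 1.74 and 1.86 with floors at the 30th and 70th percentiles and 2.14 with an offset of 100.

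The S100a genes went the other way as a group. Of 12 genes 9 were measured, all with both heads above the floor, and 8 of the 9 had the lower signal with MatDp(dist2). Their median log2 ratio was -1.03, and 5 of the 9 were at least 2-fold higher with PatDp(dist2). The median was under 2-fold in 7 of 8 alternatives and ranged from -1.06 with median centring to -0.41 with the floor at the 30th percentile. The count of 5 was 3 with the mean over probe sets and 2 without _x_at and _s_at probe sets.

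S100a8 and S100a9, which pair to form calprotectin of neutrophils, were among these 5. S100a8 had 448 with MatDp(dist2) and 1320.2 with PatDp(dist2), 2.95-fold higher with PatDp(dist2), on a single probe set that ends in _s_at. S100a9 had 312 with MatDp(dist2) and 666 with PatDp(dist2), 2.13-fold higher with PatDp(dist2). With an offset of 100 or the floor at the 70th percentile, S100a9 was under 2-fold, at log2 ratios of -0.89 and -0.52. In a list of neutrophil and marrow granulocyte genes 3 of 12 genes were measured, and 0 of these 3 were 2-fold apart in either direction. The summed signal of all 12, which includes 9 genes below the floor in both heads, was 1957 with MatDp(dist2) and 2571.5 with PatDp(dist2). The neutrophil granule genes Mpo, Elane and Camp were below the floor in both heads, while Ltf had 617 with MatDp(dist2) and 1062 with PatDp(dist2). Macrophage genes, summed over 8 genes, had 7488 with MatDp(dist2) and 11422 with PatDp(dist2), with 0 of 7 measured genes 2-fold apart. The part of either cell type in the S100a8 and S100a9 values was not tested.

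S100a13, which helps release signal proteins that lack a secretion sequence, had 924 with MatDp(dist2) and 1982 with PatDp(dist2), 2.14-fold higher with PatDp(dist2). S100a1, a calcium sensor of heart and skeletal muscle, was 2.12-fold higher with PatDp(dist2) on 1419814_s_at, with 1158 with MatDp(dist2) and 2458 with PatDp(dist2). Its other probe set, 1417421_at, had 284 with MatDp(dist2) and 508 with PatDp(dist2), 1.79-fold, and the mean over both was under 2-fold, at a log2 ratio of -0.96. Of the muscle markers Acta1, Ckm and Myh3, 0 of 3 were 2-fold apart, and their summed signal was 38065 with MatDp(dist2) and 44252 with PatDp(dist2). These 3 markers do not stand for all muscle genes. The actinin genes Actn2 and Actn3 had log2 ratios of -1.29 and -1.24, past 2-fold, while the actin gene Actc1 had -0.15. The part of muscle in the S100a1 value was not tested.

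S100a10, the partner of annexin A2 at the cell membrane, passed 2-fold on 1 of 3 probe sets. Probe set 1456642_x_at had 3709 with MatDp(dist2) and 7564.5 with PatDp(dist2), 2.04-fold higher with PatDp(dist2). The other 2 probe sets, 1416762_at and 1439348_at, were 1.40-fold and 1.37-fold higher there. Under quantile normalization and the loess fit S100a10 was under 2-fold, at log2 ratios of -0.80 and -0.86. So it was with the mean over probe sets, at -0.66, and without _x_at and _s_at probe sets, at -0.49.

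The other S100a genes lay closer together. S100a4, known from fibroblasts and macrophages, had 498.5 with MatDp(dist2) and 664 with PatDp(dist2). S100a6, calcyclin, had 3105 with MatDp(dist2) and 3777 with PatDp(dist2). S100a16 had 3037 with MatDp(dist2) and 3137 with PatDp(dist2) on its brightest probe set. Its other probe set had 2462.5 with MatDp(dist2) and 2353.5 with PatDp(dist2), and the sign of the gene turned under quantile normalization, the loess fit and the mean over probe sets.

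S100a14, an S100 gene of epithelial cells, was the exception among the S100a genes. It had 969 with MatDp(dist2) and 397 with PatDp(dist2), 2.44-fold higher with MatDp(dist2). S100a3, a gene of the hair cuticle, was just below the floor with MatDp(dist2), with 172, and far below it with PatDp(dist2), with 21.6. S100a5 had 177 with MatDp(dist2) and 171 with PatDp(dist2), and S100a7l2 had 1.6 with MatDp(dist2) and 1.7 with PatDp(dist2), also below the floor in both. Outside the cluster, S100b, the S100 gene of glia, had 511 with MatDp(dist2) and 1292 with PatDp(dist2), 2.53-fold higher with PatDp(dist2), while S100g was below the floor in both.

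The members are also given in the gene order of the cluster. The block from S100a1 to S100a9 at one end had 8 measured genes, 7 of them with the lower signal with MatDp(dist2) and a median log2 ratio of -0.75. The block from Lor to Tchhl1 in the middle had 28 measured genes, members and neighbours together, of which 19 passed the floor only with MatDp(dist2), so that their direction was fixed. The other 9 were above the floor in both heads and had the higher signal with MatDp(dist2), 8 of them by at least 2-fold. S100a10 at the far end was again lower with MatDp(dist2). RefSeq was used for the order of the genes and not for distances.

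The naming rule leaves out some neighbours inside the middle block. Crct1, which lies between Lce3f and Lce1m, had 3681.5 with MatDp(dist2) and 85.0 with PatDp(dist2), at least 19.7-fold. Kprp, a proline-rich keratinocyte protein gene, had 985 with MatDp(dist2) and 211 with PatDp(dist2), 4.67-fold. The gene 2310050C09Rik was at least 1.83-fold and Prr9 at least 1.36-fold higher with MatDp(dist2). Lelp1 and Smcp, a sperm mitochondrial gene, were below the floor in both. Over the list of neighbours and of broadly expressed genes close to the cluster, 2 of 10 measured genes, Crct1 and Kprp, were at least 2-fold higher with MatDp(dist2) and 0 with PatDp(dist2), with a median log2 ratio of 0.36. Ilf2, a broadly expressed RNA-binding protein gene of this list, had 1310.4 with MatDp(dist2) and 826 with PatDp(dist2).

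Genes of the same outer layers of skin that the naming rule leaves out were higher with MatDp(dist2) too, and genes of the basal layer lay under 2-fold. In bulk tissue, fewer cells of a type and less RNA per cell cannot be told apart. Of 18 measured keratin and suprabasal genes outside the cluster, 14 were at least 2-fold higher with MatDp(dist2) and 0 with PatDp(dist2), with a median log2 ratio of 2.34. Of the 10 above the floor in both heads 9 were at least 2-fold higher with MatDp(dist2). The summed signal of the list was 56302 with MatDp(dist2) and 6794 with PatDp(dist2). Asprv1, the protease that cuts the filaggrin precursor, had 3809.5 with MatDp(dist2) and 162 with PatDp(dist2), at least 20.4-fold. Krt10 and Krt1, the paired keratins of suprabasal cells, were 17.2-fold and 16.2-fold higher with MatDp(dist2).

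Of the 10 measured basal genes 0 were 2-fold apart, their median log2 ratio was 0.35, and their summed signal was 18222 with MatDp(dist2) and 14593 with PatDp(dist2). The basal keratin pair Krt5 and Krt14 had 1.58-fold and 1.56-fold higher signals with MatDp(dist2), and Trp63, the regulator of stratified epithelia, was 1.36-fold higher. None of the defining epidermal markers Krt1, Krt10, Krt5, Krt14, Krtdap, Sbsn and Trp63 was below the floor in either head. The part of the amount of skin in each sample in the EDC values was not tested.

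Few of the enzymes that link and process envelope proteins passed 2-fold. Of 12 such genes 6 were below the floor in both heads and could not be called. Of the 6 measured, 1 was at least 2-fold higher with MatDp(dist2), and the median log2 ratio was 0.30. The one was Tgm3, a transglutaminase of hair and upper epidermis, with 656 with MatDp(dist2) and 205.5 with PatDp(dist2), 3.19-fold. Tgm1, the transglutaminase of keratinocyte membranes, was below the floor in both heads, with 163 with MatDp(dist2) and 70.4 with PatDp(dist2). Alox12b had 233 with MatDp(dist2) and 7.5 with PatDp(dist2), at least 1.25-fold, a bound kept small by the floor. Of 9 envelope protein genes outside the cluster 3 were at least 2-fold higher with MatDp(dist2), with a median log2 ratio of 0.79. They were the protease inhibitors Stfa3 (21.0-fold) and Csta1 (at least 6.50-fold) and the plakin Evpl (3.27-fold).

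The median of transcription factors of epidermal differentiation lay near the centre of all genes, and single factors went both ways. The higher signal was with MatDp(dist2) for 8 of them and with PatDp(dist2) for 7. For 3 of them only the MatDp(dist2) signal was above the floor, so their ratios are lower bounds. Of 15 measured factors 1 was at least 2-fold higher with MatDp(dist2), 0 were with PatDp(dist2), and the median log2 ratio was 0.20. The one was Prdm1, which acts in the granular layer, with 597 with MatDp(dist2) and 252 with PatDp(dist2), 2.37-fold. Cebpa had 1475.5 with MatDp(dist2) and 2718 with PatDp(dist2), 1.84-fold higher with PatDp(dist2). With the loess fit or the higher floor the median of this list lay between -0.04 and 0.06.

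Other keratinised epithelia were higher with MatDp(dist2) too, with lower medians than the suprabasal genes. These medians include bounds, which understate folds. Of 10 measured keratin genes of mouth and oesophagus, which also serve other epithelia, 8 were at least 2-fold higher with MatDp(dist2), with a median log2 ratio of 1.12. Of the 10 genes 6 are bounds, and with the floor at the 70th percentile the median was 0.44. Krt13, a keratin of the oral lining, had 4420.2 with MatDp(dist2) and 1260.4 with PatDp(dist2), 3.51-fold. Of 9 measured hair follicle genes 4 were at least 2-fold higher with MatDp(dist2), 2 of them as bounds, with a median of 0.57. The other 2 were Krt25 and Lhx2, a transcription factor gene that is not particular to hair follicles. Lhx2 had the largest ratio of the list, 3.66-fold. Bounds made up 4 of the 9 genes. The inner root sheath keratin Krt25 had 756 with MatDp(dist2) and 269 with PatDp(dist2). Their part in the Sprr3, Rptn and Tchh values was not tested.

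Genes of dermal fibroblasts lay near the centre of all genes. Of 8 fibroblast genes of the dermis 0 were 2-fold apart, with a median log2 ratio of -0.03 and a summed signal of 76271 with MatDp(dist2) and 81819 with PatDp(dist2). Of 5 measured melanocyte genes 2 were at least 2-fold higher with MatDp(dist2), with a median of 0.48, or 0.76 with the floor at the 70th percentile. Markers outside the skin differed as well, since the neuronal genes Tubb3, Dcx and Elavl3 were 3.68-fold, 3.37-fold and 2.90-fold higher with MatDp(dist2).

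**Figure D3:**
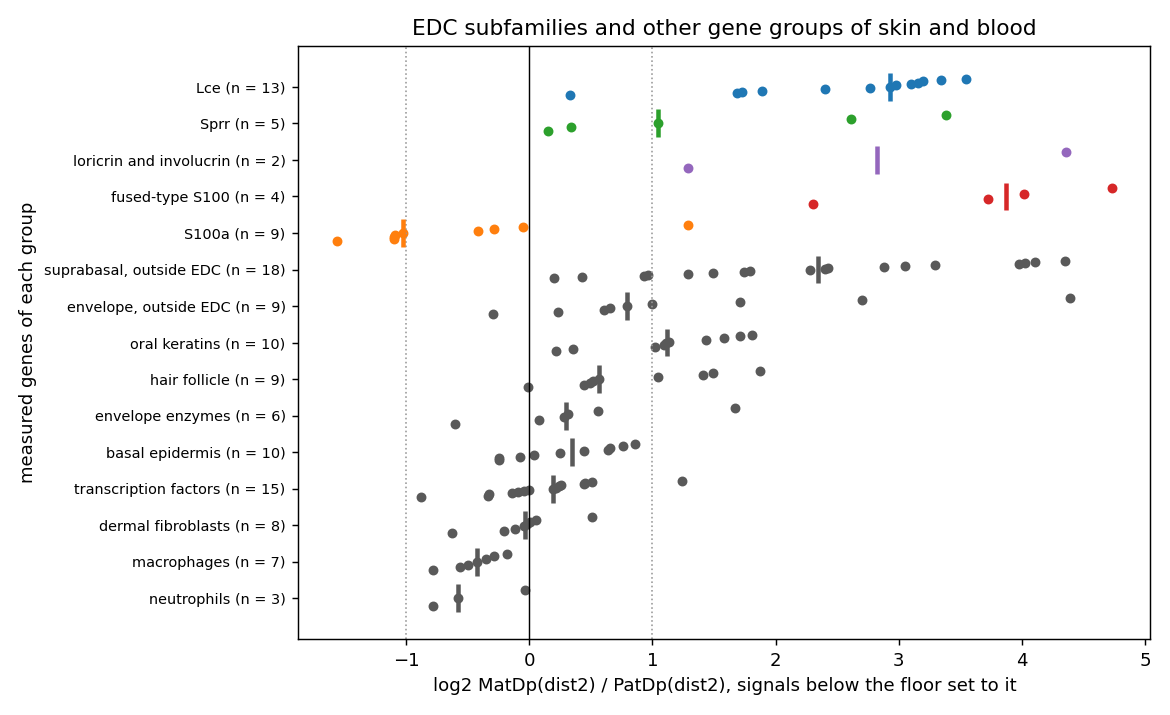
The log2 ratio of MatDp(dist2) over PatDp(dist2) of each measured gene in the EDC subfamilies (coloured) and in lists of other skin, mouth and blood cell genes (grey), with a thick bar at the median of each group and dotted lines at 2-fold. The medians were 2.93 for Lce, 1.04 for Sprr, 3.87 for fused-type and -1.03 for S100a genes, against 2.34 for suprabasal genes, 0.35 for basal genes and -0.03 for dermal fibroblast genes.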

How the data were processed

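Total RNA from 1 whole newborn head sample per genotype was hybridised to an Affymetrix expression array as biotin-labelled cRNA, per the labels' protocols. The deposited values are linear signal intensities, 1 per probe set and array, made with MAS5 and GCOS, per the submitters' processing notes. Their versions are not stated in those notes. The mean without the lowest and highest 2% of values was 500.002 on both arrays, so the deposited intensities carry a scaling to a common trimmed mean. The number of arrays limits the precision, and MAS5 signals are noisy when dim.

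Control probe sets, 64 in all, were not used. The platform annotation gave 1 symbol to 34945 of the rest. The 932 with several symbols and the 9160 with none were not named. Of the named, 34741 had a gene ID in RefSeq (GRCm38.p6), which updated their symbols. The signals name no genome build, so RefSeq coordinates are printed only for its promoter sequences. Each gene was represented by its brightest probe set, ranked on the mean of both log2 signals. Its log2 ratio of MatDp(dist2) over PatDp(dist2) took signals below the floor of 187 as that floor, and 2-fold was the threshold of counts. No test could be made with 1 array per group. The counting was tested on simulated arrays. Alternatives were median centring, quantile normalization, a loess fit (statsmodels 0.14.6, span 0.3), floors at the 30th and 70th percentiles, an offset of 100, the mean over probe sets, leaving out _x_at and _s_at probe sets, a threshold of 3-fold, and both arrays above the floor. Labels gave the groups.

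The members and the 13 other gene lists, with 156 entries, were chosen with earlier results of these data known. The rule for named genes took every member and, from each list, up to 5 genes with the largest differences and the defining markers. Actn2, Actn3 and Actc1 were named outside that rule. Protein sequences, which the same rule foresaw, are not used here, and promoters were printed in their place.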

Additional observations from a re-analysis of the deposited data

Results flagged for a closer look

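A pair of probe sets that the naming rule leaves out, because the annotation gives each several gene symbols, carried signals above the floor of 187. Probe set 1439016_x_at, shared by the small proline-rich genes Sprr2a1, Sprr2a2 and Sprr2a3, had signals of 798.8 with MatDp(dist2) and 672.3 with PatDp(dist2), 1.19-fold. Probe set 1460351_at, shared by an S100 gene, a pseudogene and a predicted gene, had 6677 with MatDp(dist2) and 8037.3 with PatDp(dist2), a log2 ratio of -0.27. Both are data outside the comparisons above, and which gene each one reads was not analysed here.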

How the results depend on the processing

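Of 86 values under alternatives, 73 stayed within 1.5 times of the reported count or of the reported median as a fold (0.58 on the log2 scale), a wide margin for medians near 0, and 13 moved further, and 0 medians of at least 2-fold changed sign. The count of genes higher with MatDp(dist2) was 8, in place of 22, with both heads required above the floor. The count higher with PatDp(dist2), 5, was 3 with the mean over probe sets, 2 without _x_at and _s_at probe sets and 0 at a 3-fold threshold. With the floor at the 30th percentile, which changes the bounds and the genes measured, median log2 ratios were 2.48 for all EDC genes, 1.74 for Sprr, 4.64 for fused-type and -0.41 for S100a genes. With the floor at the 70th percentile they were 1.84 for Lce, 1.86 for Sprr, 2.56 for fused-type and 0.44 for oral keratin genes. With an offset of 100 the Sprr median was 2.14. The subfamily medians kept their sign under each of 8 alternatives (3 scalings, 2 floors, the offset and 2 choices of probe sets). For Lce, Sprr and fused-type genes this sign was largely fixed and is no check. Of their measured genes 7 of 13, 4 of 5 and 4 of 4 passed the floor only with MatDp(dist2). The 9 measured S100a genes were above it in both heads, so their median could have changed sign. No paired analysis was possible because the values come from 1 array per genotype and no test. Dim genes are limited by the floor, and bounds understate differences.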
